A study of Homo sapiens with 4 samples.

Results

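The genes of sterol and fatty acid synthesis were read as a list of 34 symbols. This list, and the further lists read below, were chosen with earlier results of these data known. All 34 were found among the 61806 genes of the count table and passed the filter on low counts. They comprise 18 enzymes of the route from acetyl-CoA to cholesterol, 5 regulators of that route, 3 genes of sterol transport and receptor turnover, and 8 enzymes of fatty acid synthesis. The cells were U251-MG, an established human glioblastoma line listed with genotype WT and cell type glioma cell and grown in DMEM with serum. All 4 libraries came from cells infected with a lentivirus made from the pCDH-CMV-MCS-EF1-puro plasmid, which carries a puromycin resistance gene. The insert was the cDNA of COL8A1, a collagen VIII chain, in 2 libraries, and in the other 2 the vector was the negative control (NC). The CMV promoter of the plasmid is a strong viral promoter, and gene counts do not separate RNA of the insert from that of the cell's own COL8A1 gene. Separate cultures are not stated for the libraries of a group, nor is it said whether the infected cells were a clone or a pool, and p-values therefore reflect only the spread between libraries. Where 4 values are given for a gene, their order is NC replicate 1, NC replicate 2, COL8A1 replicate 1, COL8A1 replicate 2.

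Cells build cholesterol from acetyl-CoA through mevalonate, farnesyl diphosphate, squalene and lanosterol, and they build long-chain fatty acids from the same acetyl-CoA through malonyl-CoA. Both routes are driven by the SREBP transcription factors, which are made as membrane proteins of the endoplasmic reticulum. The escort protein SCAP carries them to the Golgi for cleavage when sterols are scarce, and the INSIG proteins hold SCAP back when sterols are plentiful. SREBP-2 is best known for the sterol genes and SREBP-1c for the fatty acid genes. Glioblastoma cells are known to depend on this pathway for membrane lipids.

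Each library held between 27923796 and 33576228 counted reads. In bulk RNA, fewer cells that express a gene and less of its RNA per cell cannot be told apart. COL8A1 itself had 77, 82, 4290 and 2259 counts, or 2.47 ± 0.055 CPM (counts scaled to library size) under the control vector and 108 ± 37.9 under the COL8A1 vector (SD, n = 2), so the libraries match their labels. Of 17030 genes tested with edgeR's quasi-likelihood test, 2 passed an adjusted p of 0.05 (0.0117%), and neither is a lipid synthesis gene. COL8A1 itself just missed it (edgeR adjusted p = 0.0681). The glial and glioma markers VIM, NES, SOX2, SOX9 and CD44 had at least 4979 counts in every library, GFAP and S100B had 19 to 82, and OLIG2 had 0. Of the markers of other cell types, CDH5 (1670 to 2487 counts), SYT1 (676 to 969) and CD68 (107 to 187) had the highest counts in all 4 libraries. The others, among them the endothelial PECAM1 and VWF, the epithelial CDH1 and EPCAM, the neuronal SNAP25 and the leukocyte PTPRC, had at most 39 counts in any library.

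The results turn on a few members, and the 250 bases before their RefSeq transcription start are shown. Members from the lower and the higher side, and from each arm, can thus be read beside their counts. INSIG1 and HMGCS1 had the lowest values in COL8A1 cells relative to NC, SREBF2 and SCD were on the higher side, and LSS is a sterol enzyme that was also on the higher side. The sequences are RefSeq's on build GRCh38.p14, at chr7:155297628-155297877 (plus strand), chr5:43313413-43313662 (minus strand, the first of 2 listed starts), chr21:46228775-46229024 (minus strand), chr22:41832855-41833104 (plus strand) and chr10:100346983-100347232 (plus strand). Gene positions given below are instead the spans of GENCODE release 29, which begin further upstream. The last bases of each sequence shown therefore lie inside the span of its gene. Capitals mark the CCAAT box (CCAAT, or ATTGG where it lies on the other strand). They also mark the sterol regulatory element in the form TCACNCCAC (N is any base), and the E-box CACGTG.
INSIG1: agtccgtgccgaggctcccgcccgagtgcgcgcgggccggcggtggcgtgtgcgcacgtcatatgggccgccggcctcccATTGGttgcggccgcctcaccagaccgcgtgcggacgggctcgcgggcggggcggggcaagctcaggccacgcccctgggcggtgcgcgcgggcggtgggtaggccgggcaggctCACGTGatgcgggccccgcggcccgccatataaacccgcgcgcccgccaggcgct
HMGCS1: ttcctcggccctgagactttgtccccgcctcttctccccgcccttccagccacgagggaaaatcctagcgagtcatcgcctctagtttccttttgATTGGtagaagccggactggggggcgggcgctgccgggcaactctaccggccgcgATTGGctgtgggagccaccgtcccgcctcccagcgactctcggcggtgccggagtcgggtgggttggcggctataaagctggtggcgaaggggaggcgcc
LSS: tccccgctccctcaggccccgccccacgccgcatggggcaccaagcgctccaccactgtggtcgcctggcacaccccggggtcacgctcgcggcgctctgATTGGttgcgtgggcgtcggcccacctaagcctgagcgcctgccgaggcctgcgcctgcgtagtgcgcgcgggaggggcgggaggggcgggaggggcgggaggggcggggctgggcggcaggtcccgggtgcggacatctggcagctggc
SREBF2: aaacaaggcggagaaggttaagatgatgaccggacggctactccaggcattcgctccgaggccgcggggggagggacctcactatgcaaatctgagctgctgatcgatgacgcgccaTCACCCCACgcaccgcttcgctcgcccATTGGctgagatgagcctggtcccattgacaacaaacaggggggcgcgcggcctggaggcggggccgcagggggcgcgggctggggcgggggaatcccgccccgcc
SCD: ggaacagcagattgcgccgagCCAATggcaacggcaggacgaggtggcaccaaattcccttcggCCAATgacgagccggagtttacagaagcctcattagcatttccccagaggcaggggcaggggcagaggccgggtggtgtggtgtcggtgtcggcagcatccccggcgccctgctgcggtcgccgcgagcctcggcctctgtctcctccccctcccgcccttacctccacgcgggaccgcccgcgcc

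A CCAAT box, the site that the factor NF-Y is known to bind beside SREBP, was present in all 5 of these windows. It lay 170 bases before the start in INSIG1, 155 and 100 bases before it in HMGCS1, and 150 bases before it in LSS. Among the members, the exact letters TCACNCCAC were found only in SREBF2 (1 of 30, against 1.16% of the genes tested here). The match lay 133 bases before the start, with the CCAAT box at 106 bases. Other forms of the sterol regulatory element, and sites outside the 250 bases, were not searched. A missing match is therefore not a missing element. Of the members, 30 had a promoter entry, and 21 of those 30 (70.0%) held a CCAAT box on either strand. The share was 41.8% over the 11357 genes with an entry that were tested here and 37.0% over all 27305 genes with an entry. By arm, 13 of 15 sterol enzymes, 4 of 7 fatty acid enzymes and 2 of 5 regulators held it. The letters GGGCGG, the GC box of Sp1-type factors, were in 29 of the 30 members against 72.6% of tested genes. The E-box was in 4 of the 30 members (13.3%, against 10.9% of tested genes). All motifs were searched on both strands of the 250 bases before each listed start. For the shares, a gene held a motif if any of its listed starts had a match. The number of starts per gene was not adjusted for. A match is a run of letters and not a shown binding site. The CCAAT box was present both in the members that were lower and in those that were higher.

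In COL8A1 cells 22 of the 34 members were higher and 12 lower than in NC cells, and the differences were small for most of them. INSIG1 and HMGCS1 stood apart, at 1.92-fold and 1.81-fold lower. The enzymes of fatty acid synthesis were higher in 7 of 8 cases, by at most 1.38-fold. Of the 34 members, 6 (17.6%) had an unadjusted p under 0.05, 4 of them higher and 2 lower, against 6.07% of all genes in the fit, 3.44% higher and 2.63% lower. Those 6 were INSIG1, HMGCS1, SREBF2, FASN, SCD and FADS1, and 0 of them passed in edgeR after adjustment over all genes, whereas INSIG1 and HMGCS1 passed in DESeq2, which called 1.06% of all genes. The CPM of the groups did not overlap in 25 members (17 higher, 8 lower), or 73.5%, against 37.5% of all genes tested (18.9% higher, 18.6% lower). The median log2 fold change was 0.10 over the members and 0.001 over all genes tested. The absolute log2 difference between the 2 libraries of a group had a median of 0.089 in NC and 0.15 in COL8A1 cells over the members, against a median absolute log2 fold change of 0.18 between the groups. In 17 of the 34 members (50.0%) the difference between the groups was larger than both differences within a group, against 24.1% of all genes tested. The genes tested include genes with few counts, whereas each member had at least 194 counts in every library. Shares over genes of a like level were not computed. Because the members were chosen with earlier results of these data known, these shares describe the list and do not test it.

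**Figure D1:**
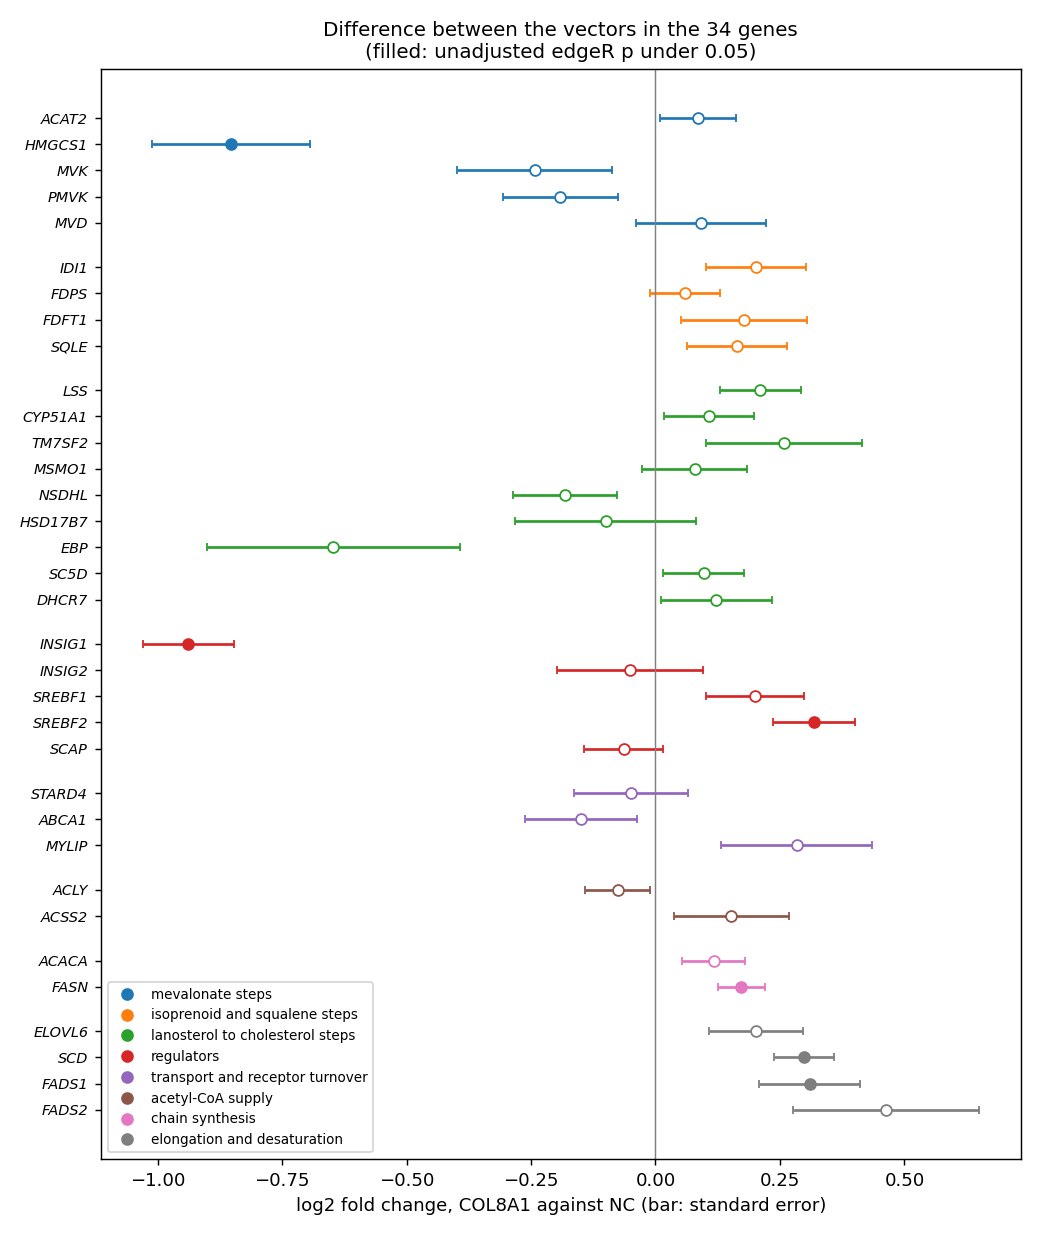
Log2 fold change (horizontal axis, COL8A1 against NC) of each of the 34 genes in pathway order, coloured by role, with the edgeR standard error as a bar and filled points for an unadjusted p under 0.05. INSIG1 (−0.94), HMGCS1 (−0.85) and EBP (−0.65) lie far to the left, and the 4 elongation and desaturation genes at the bottom all lie to the right of 0.

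Among the regulators, INSIG1, the feedback protein that is itself an SREBP target, had the lowest p of all members. Its gene (ENSG00000186480) is at 155297776 to 155310235 of chromosome 7, plus strand. The counts were 1716, 1831, 930 and 785, or 56.0, 54.3, 29.3 and 28.3 CPM. Both COL8A1 libraries were thus far below both NC libraries, and the libraries of a group were close to each other. The mean was 55.1 ± 1.16 CPM with the control vector and 28.8 ± 0.705 CPM with COL8A1 (SD, n = 2), a log2 fold change of −0.94 (SE 0.091). The unadjusted edgeR p was 0.00023, the 25th smallest of 17030, with an adjusted p of 0.155. DESeq2 gave an adjusted p of 5.59e-11, and edgeR adjusted p-values over the other settings ran from 0.0821 to 0.483. With any of the 4 libraries left out, the log2 fold change stayed between −0.96 and −0.92. No other gene of the table shared exon sequence with INSIG1 in the GENCODE release 29 annotation, in which 58254 of the table's genes were placed.

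INSIG2, the second INSIG protein, which is known to be less dependent on SREBP, had 529, 564, 573 and 410 counts. The groups overlapped, and COL8A1 replicate 1 was the highest and COL8A1 replicate 2 the lowest library. The log2 fold change of INSIG2 was −0.05 (SE 0.146), with a 95% interval from −0.44 to 0.33 that does not reach the value of INSIG1, and it was 0.08 without COL8A1 replicate 2. SCAP, the escort that the INSIG proteins bind, was at 107, 106, 96.9 and 106 CPM. Its log2 fold change was −0.06 (SE 0.079), from −0.13 without COL8A1 replicate 2 to −0.0003 without COL8A1 replicate 1, and the groups overlapped.

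SREBF2, which encodes SREBP-2, was higher in COL8A1 cells. It had 4976, 5803, 6972 and 5488 counts, or 162, 172, 219 and 198 CPM. Its gene is at 41833079 to 41907308 of chromosome 22, plus strand. The groups did not overlap, with COL8A1 replicate 1 the highest library. The means were 167 ± 7.0 and 209 ± 15.4 CPM (SD, n = 2), a log2 fold change of 0.32 (SE 0.082, edgeR adjusted p = 0.662). SREBF1, which encodes both SREBP-1 forms, had 7463, 8444, 9774 and 7210 counts (log2 fold change 0.20, SE 0.099, edgeR adjusted p = 0.835). In CPM the COL8A1 libraries were again above the NC libraries, though replicate 2 by little, and the log2 fold change of SREBF1 ran from 0.07 without COL8A1 replicate 1 to 0.31 without COL8A1 replicate 2. SREBF1 shares 556 exon bases on the opposite strand with RAI1, whose counts ran from 2920 to 3330, and the strand setting of the counting is not known.

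**Figure D2:**
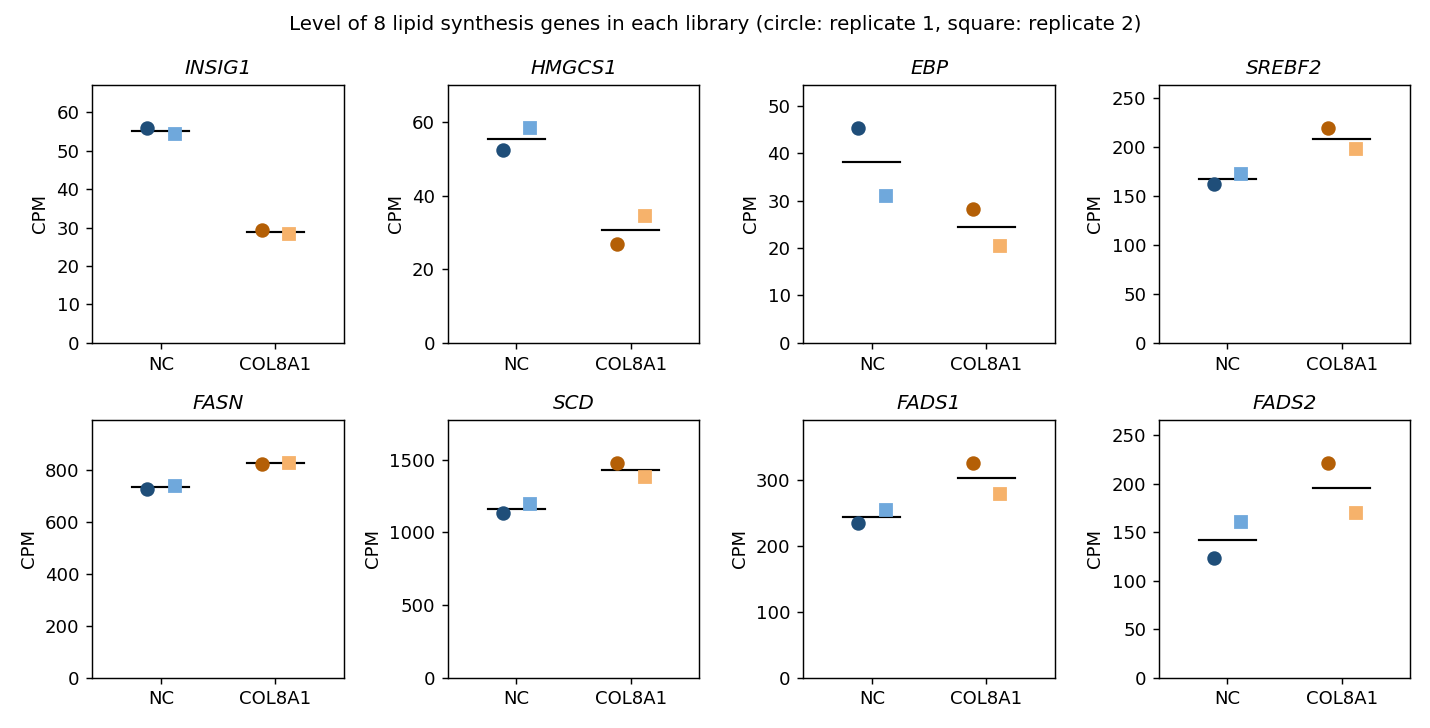
CPM (vertical axes, starting at 0) of 8 genes in each library, with circles for replicate 1, squares for replicate 2 and a line at the mean of each group of 2. INSIG1 and HMGCS1 were lower in both COL8A1 libraries by a wide margin, FASN and SCD were higher in both by a smaller one, and EBP and FADS2 differed within the groups nearly as much as between them.

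The first steps of the sterol route, from acetyl-CoA to isopentenyl diphosphate, held the other large difference. HMGCS1, the cytosolic synthase that makes HMG-CoA, had 1609, 1971, 852 and 962 counts. Its levels were 52.5, 58.5, 26.8 and 34.6 CPM, and its gene (ENSG00000112972) is at 43289395 to 43313512 of chromosome 5, minus strand. The higher COL8A1 library was thus still well below the lower NC library. The means were 55.5 ± 4.25 and 30.7 ± 5.54 CPM (SD, n = 2), with a log2 fold change of −0.85 (SE 0.159). The unadjusted edgeR p was 0.00376 and the adjusted p was 0.533, from 0.306 to 0.702 in edgeR over the other settings, while DESeq2 gave an adjusted p of 0.00193. Leaving out a library moved the log2 fold change between −1.05 (without COL8A1 replicate 2) and −0.68 (without COL8A1 replicate 1). An antisense gene that shares 703 exon bases with HMGCS1 had only 6 to 23 counts.

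The remaining mevalonate enzymes showed smaller differences, none with an unadjusted edgeR p under 0.05. ACAT2, which joins acetyl-CoA units, was at 101, 103, 104 and 113 CPM, with a log2 fold change of 0.09 (SE 0.077). Both COL8A1 libraries were below both NC libraries for the kinases MVK (log2 fold change −0.24, SE 0.156) and PMVK (−0.19, SE 0.116). PMVK had 1051, 1019, 933 and 753 counts (34.3, 30.2, 29.4 and 27.1 CPM), so that NC replicate 2 and COL8A1 replicate 1 were nearly level. For MVD, the decarboxylase that follows, the groups overlapped (log2 fold change 0.09, SE 0.13). ACAT2 shares 397 exon bases with TCP1 and MVK shares 306 with MMAB, both on the opposite strand.

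The isoprenoid and squalene enzymes were all slightly higher in COL8A1 cells (4 of 4, log2 fold changes from 0.06 to 0.20), and 0 had an unadjusted p under 0.05. IDI1, the isomerase of the isoprenoid units, had 1246, 1512, 1524 and 1400 counts, or 40.6, 44.9, 48.0 and 50.4 CPM. The groups did not overlap (log2 fold change 0.20, SE 0.101, edgeR adjusted p = 0.835). SQLE, the epoxidase that commits squalene to sterols, had 1127, 1150, 1297 and 1070 counts (36.8, 34.1, 40.8 and 38.5 CPM). Its log2 fold change was 0.16 (SE 0.10), with a 95% interval from −0.10 to 0.43. That interval, which reflects only the spread between libraries, does not reach the value of INSIG1 or of HMGCS1. The log2 fold change was 0.06 (SE 0.071) for FDPS, which makes farnesyl diphosphate, and 0.18 (SE 0.127) for FDFT1, the squalene synthase.

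Of the 9 enzymes from lanosterol formation to cholesterol, 6 were higher and 3 lower. Their median log2 fold change was 0.10, and 0 had an unadjusted p under 0.05. LSS, the cyclase that forms lanosterol, had 2076, 2454, 2574 and 2266 counts, or 67.7, 72.8, 81.0 and 81.6 CPM. The COL8A1 libraries were close together and above both NC libraries, at a log2 fold change of 0.21 (SE 0.082, edgeR adjusted p = 0.816). TM7SF2, a sterol reductase, had 413, 415, 539 and 385 counts (13.5, 12.3, 17.0 and 13.9 CPM) and a log2 fold change of 0.26 (SE 0.157), which was 0.11 without COL8A1 replicate 1 and 0.39 without COL8A1 replicate 2. CYP51A1, MSMO1, SC5D and DHCR7, which carry out demethylation, oxidation, desaturation and the final reduction, had log2 fold changes from 0.08 to 0.12.

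EBP, the sterol isomerase that binds emopamil, was lower. It had 1390, 1045, 898 and 568 counts, or 45.3, 31.0, 28.3 and 20.5 CPM. The libraries of each group stood apart from each other, and NC replicate 2 was only slightly above COL8A1 replicate 1. The log2 fold change was −0.65 (SE 0.254, edgeR adjusted p = 0.816), and it ran from −0.90 without NC replicate 2 to −0.35 without NC replicate 1. NSDHL, the decarboxylating dehydrogenase upstream of EBP, had 905, 985, 864 and 683 counts (29.5, 29.2, 27.2 and 24.6 CPM) and a log2 fold change of −0.18 (SE 0.104). HSD17B7, the ketoreductase that acts with NSDHL, was the lowest of all members per kilobase and had a log2 fold change of −0.10 (SE 0.182), with overlapping groups. EBP and NSDHL both lie on the X chromosome.

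**Figure D3:**
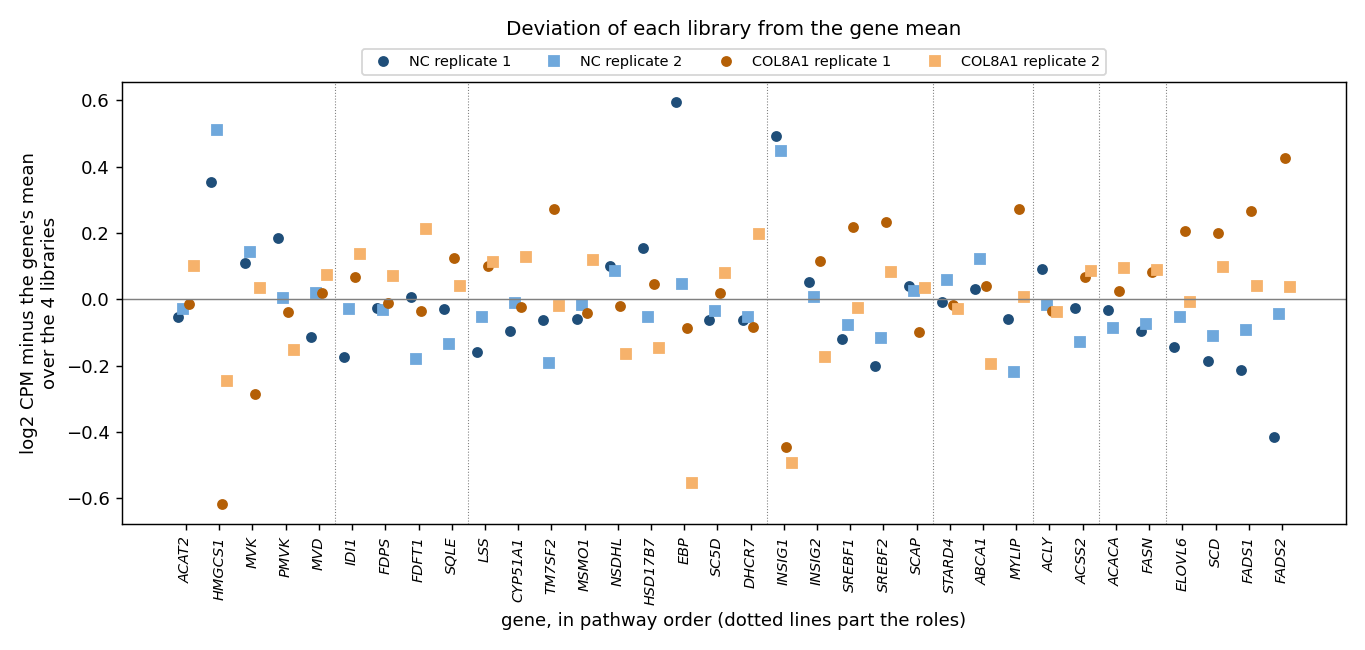
Deviation of log2 CPM from the gene's mean over the 4 libraries (vertical axis) for each gene in pathway order, with a marker for each library. The COL8A1 libraries lie at the bottom for HMGCS1 and INSIG1, and COL8A1 replicate 1 is the highest library for SREBF1, SREBF2 and the elongation and desaturation genes.

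Of the genes that move or clear sterols, STARD4 and ABCA1 were slightly lower and MYLIP was higher. STARD4, a cytosolic sterol carrier, had 480, 552, 494 and 428 counts (15.7, 16.4, 15.5 and 15.4 CPM) and a log2 fold change of −0.05 (SE 0.115). ABCA1, the cholesterol exporter induced by the oxysterol-sensing LXR receptors, had 2195, 2572, 2292 and 1701 counts (71.6, 76.3, 72.1 and 61.3 CPM). Its groups overlapped, and the log2 fold change was −0.15 (SE 0.112), from −0.27 without COL8A1 replicate 1 to −0.04 without COL8A1 replicate 2. MYLIP, also an LXR target, encodes the ubiquitin ligase that removes lipoprotein receptors. It had 479, 471, 625 and 454 counts and a log2 fold change of 0.28 (SE 0.151). The CPM of MYLIP did not overlap between the groups, and its log2 fold change ran from 0.14 without COL8A1 replicate 1 to 0.41 without COL8A1 replicate 2. ABCA1 and MYLIP thus had opposite signs, and neither had an unadjusted edgeR p under 0.05. Other members were not sorted by whether LXR acts on them.

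Among the fatty acid enzymes the groups did not overlap in any of the 8 genes, 7 being higher and 1 lower in COL8A1 cells (against 37.5% of genes tested without overlap). FASN, the multifunctional synthase that makes palmitate, had 22320, 24893, 26205 and 22994 counts. In CPM these were 728, 739, 825 and 828, so that the libraries of a group differed by less than the groups did. The means were 733 ± 7.56 and 826 ± 2.41 CPM (SD, n = 2), a log2 fold change of 0.17 (SE 0.048, edgeR adjusted p = 0.685). ACACA, the carboxylase that makes malonyl-CoA for FASN, had 7404, 7836, 7974 and 7310 counts and a log2 fold change of 0.12 (SE 0.063). FASN is at 82078333 to 82098332 of chromosome 17, minus strand.

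The desaturases and the elongase showed the larger differences of this arm. SCD, which makes oleate-type monounsaturated fatty acids, was the most abundant member. It had 34717, 40247, 47058 and 38322 counts, or 1132, 1194, 1481 and 1380 CPM. Both COL8A1 libraries were above both NC libraries, and the log2 fold change was 0.30 (SE 0.061, edgeR adjusted p = 0.572, and 0.189 in DESeq2). Its gene is at 100347124 to 100364834 of chromosome 10, plus strand. ELOVL6, the elongase that takes palmitate to stearate, had 6908, 8086, 9133 and 6887 counts (225, 240, 287 and 248 CPM). Its log2 fold change was 0.20 (SE 0.094, edgeR adjusted p = 0.835), from 0.09 without COL8A1 replicate 1 to 0.30 without COL8A1 replicate 2.

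FADS1 and FADS2, the desaturases of polyunsaturated fatty acids, are neighbours on chromosome 11. FADS1 had 7187, 8574, 10384 and 7747 counts (234, 254, 327 and 279 CPM) and a log2 fold change of 0.31 (SE 0.101, edgeR adjusted p = 0.768). FADS2 had 3798, 5397, 7051 and 4711 counts (124, 160, 222 and 170 CPM) and the highest log2 fold change of any member, 0.46 (SE 0.186, edgeR adjusted p = 0.816). In both genes COL8A1 replicate 1 was well above the other libraries, and COL8A1 replicate 2 lay closer to NC replicate 2 than to it. Without COL8A1 replicate 1 the log2 fold changes were 0.19 and 0.26, and without COL8A1 replicate 2 they were 0.42 and 0.64. The genes share 490 exon bases on opposite strands, and with their counts summed the log2 fold change was 0.37 (SE 0.128, edgeR adjusted p = 0.804). COL8A1 itself was at 135 CPM in COL8A1 replicate 1 and 81.3 CPM in replicate 2, and whether its level bears on this order was not tested.

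The enzymes that supply cytosolic acetyl-CoA differed in sign. ACLY, which cleaves citrate, had 10087, 10282, 9565 and 8348 counts (329, 305, 301 and 301 CPM). The COL8A1 libraries were nearly equal and just below NC replicate 2, with a log2 fold change of −0.08 (SE 0.065). ACSS2, which activates acetate, had 500, 512, 553 and 489 counts (16.3, 15.2, 17.4 and 17.6 CPM) and a log2 fold change of 0.15 (SE 0.116). ACLY was thus the only fatty acid gene on the lower side, and neither gene had an unadjusted p under 0.05.

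Set side by side, the sterol enzymes had a median log2 fold change of 0.09 (12 of 18 higher) and the fatty acid enzymes one of 0.19 (7 of 8 higher). An unadjusted p under 0.05 was found in 1 of 18 and 3 of 8, against 6.07% of all genes tested. The limit from the choice of the members holds for these shares too. The median deviation of the sterol enzymes from the gene means was −0.041, −0.030, −0.017 and 0.072 on the log2 scale, in the same order of libraries. That of the fatty acid enzymes was −0.12, −0.081, 0.14 and 0.062. The fatty acid arm was thus higher in both COL8A1 libraries, most in replicate 1, while the sterol arm was higher mainly in replicate 2. The sterol minus fatty acid difference was 0.080, 0.051, −0.16 and 0.010, so that the COL8A1 libraries differed from each other by more than COL8A1 replicate 2 differed from NC. The difference between the medians of the log2 fold changes was −0.10, and it ran from −0.21 without COL8A1 replicate 2 to −0.05 without COL8A1 replicate 1. With 2 libraries in each group no p-value was given to this difference.

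**Figure D4:**
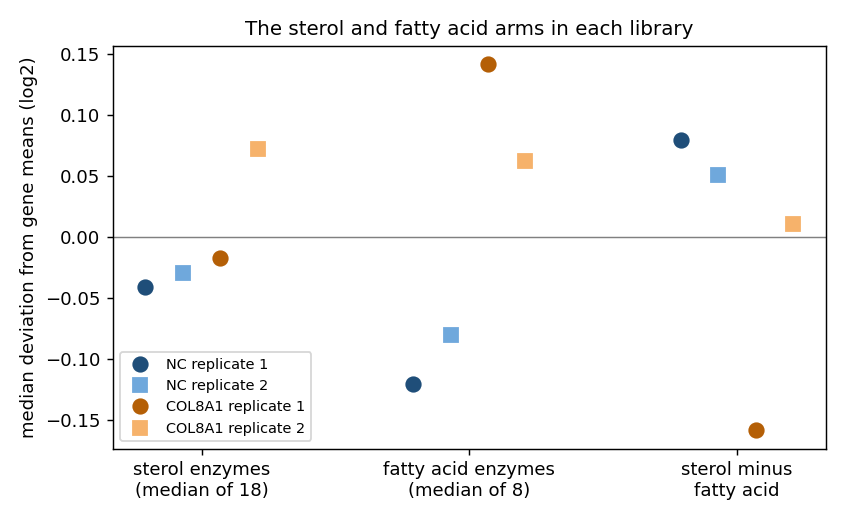
Median deviation from the gene means (log2, vertical axis) of the 18 sterol enzymes, of the 8 fatty acid enzymes and of their difference, with a marker for each of the 4 libraries. The COL8A1 libraries lie at 0.14 and 0.062 for the fatty acid enzymes and at −0.017 and 0.072 for the sterol enzymes.

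Levels were compared between genes as RPKM, which is CPM divided by the exon length in kilobases, with lengths from GENCODE release 29. In NC cells SCD was the highest at 217 RPKM, followed by FASN at 78.3 and ACLY at 60.8. The first 4 of the 34 members by level were fatty acid genes, with ELOVL6 at 31.9 in the fourth place. The highest sterol enzymes were FDPS at 29.3 and DHCR7 at 27.7, and the lowest were MVK at 2.54 and HSD17B7 at 1.68. INSIG1 went from 15.1 to 7.88 RPKM and HMGCS1 from 11.8 to 6.53, while SREBF2 went from 22.1 to 27.6. In COL8A1 cells SCD stood at 267 RPKM, so the order of the first 3 genes was the same in both groups.

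A list of 72 further genes of lipid metabolism, covering the SREBP proteases, other elongases and desaturases, fatty acid binding, LXR receptors and sterol handling, was read in the same fit, and 67 were tested. Of these 25 were higher and 42 lower. Their median log2 fold change was −0.04, and 3 were higher and 3 lower at an unadjusted p under 0.05 (8.96%, against 6.07% of all genes tested). FABP7, the brain fatty acid binding protein, had 985, 1240, 1588 and 1345 counts, with both COL8A1 libraries above both NC libraries. Its means were 34.5 ± 3.30 and 49.2 ± 1.09 CPM (SD, n = 2), and its log2 fold change was 0.51 (SE 0.11; edgeR adjusted p = 0.58, and 0.0461 in DESeq2). MBTPS1, the protease that makes the first cut in SREBP, had 3229, 3625, 4023 and 3534 counts and a log2 fold change of 0.25 (SE 0.065). TECR, a reductase of fatty acid elongation, had one of 0.24 (SE 0.077). On the lower side were RDH11, a retinol and lipid aldehyde reductase (log2 fold change −0.33, SE 0.086), and MID1IP1, an activator of acetyl-CoA carboxylase (−0.26, SE 0.094). ELOVL2, an elongase of very long polyunsaturated chains, had 15, 23, 4 and 0 counts, too few for its fold to be read.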

How the data were processed

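Total RNA of U251-MG cells was sequenced in 4 libraries, grouped by their titles. The deposited values are raw counts per gene with no normalization. Per the submitters' processing notes, build hg38 was used with featureCounts (version given as 0.3), HISAT2 2.2.1 and Trim Galore 0.6.9. Strand setting and annotation release: not given in the sources used here. Reads from overlapping genes of opposite strand can therefore not be separated. One line without counts, a protein domain record, was left out.

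From the counts, edgeR 4.0.16 in R 4.3.3 was run on all 17030 genes kept by filterByExpr, with TMM scaling, the group as the only term, and Benjamini-Hochberg adjustment over all genes tested (threshold 0.05, 2 residual degrees of freedom). Standard errors (SE) were derived from the F statistic, as the size of the log2 fold change over its square root, and 95% intervals use it with the fit's total degrees of freedom. Library deviations use log2 CPM with a prior count of 2. Alternatives were other scalings and filters, DESeq2 1.42.0, a replicate block and each library left out. Counts of FADS1 and FADS2 were summed after the data were seen.

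The members and lists were chosen with earlier results of these data known. Values in every library are given for all regulators, transport genes and fatty acid enzymes, the 8 sterol enzymes with the smallest p, and COL8A1. Of the further lipid genes, the 3 smallest p-values in each direction are named. ACAT2 and the other sterol enzymes are given by log2 fold change. Depth was 27923796 to 33576228 counts per library, and each member had at least 194 counts in every library.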

Additional observations from a re-analysis of the deposited data

How the results depend on the processing

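Over the whole table edgeR called 2 genes. It called 17 without a low-count filter, 1 with the replicate block, and 0 to 3 with a library left out (1 without NC replicate 1, 0 without COL8A1 replicate 1), whereas DESeq2 called 180. The number of lipid synthesis genes at an unadjusted p under 0.05 was 6, ran from 6 to 8 with other scalings, filters, DESeq2 and the replicate block, and from 3 (without NC replicate 1) to 9 (without COL8A1 replicate 2) with a library left out. INSIG1, HMGCS1 and SCD were among them under every one of these settings. The median log2 fold change ran from 0.019 to 0.12 for the sterol enzymes and from 0.17 to 0.23 for the fatty acid enzymes with a library left out, and their difference from −0.21 to −0.048, where the outer values −0.21, 0.019 and 0.23 came without COL8A1 replicate 2. With the replicate number as a block the sterol and fatty acid medians were 0.089 and 0.19. The labels give the number no further meaning, and the deviations of same-numbered libraries from their group means had a correlation across genes of −0.036, so the numbers were not taken to pair the libraries. Of 311 alternative values for single genes, 310 kept their direction. As none of these genes passed the adjusted threshold in edgeR with all libraries, staying below it says little about stability, and leaving out a library moved the log2 fold change by over 1.5 times in 18 of the 31 genes, such as SQLE (0.107 to 0.216), PMVK (−0.28 to −0.10), STARD4 (−0.083 to −0.020) and ACLY (−0.13 to −0.022). INSIG2 changed sign without COL8A1 replicate 2 (leave-one-out log2 fold changes from −0.20 to 0.082), INSIG1, HMGCS1 and FABP7 passed in DESeq2, and COL8A1 passed in DESeq2, without a low-count filter and without COL8A1 replicate 2. The cause of these changes was not tested. Leaving out a library leaves a group with 1, which is then assumed to vary like the other group.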

Other observations

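The LXR receptor gene NR1H3 and the LXR-induced sterol exporter gene ABCG1, chosen after their values were seen, were lower in COL8A1 cells. In the order of libraries used above, NR1H3 had 133, 158, 104 and 75 counts (log2 fold change −0.59, SE 0.235, edgeR adjusted p = 0.816). ABCG1 had 172, 195, 139 and 107 counts and a log2 fold change of −0.47 (SE 0.20, edgeR adjusted p = 0.825). Both COL8A1 libraries were below both NC libraries in each gene, and neither gene passed in edgeR or DESeq2 after adjustment. The other LXR receptor gene, NR1H2, went the opposite way, with 1531, 1684, 1858 and 1449 counts, means of 49.9 ± 0.025 and 55.3 ± 4.45 CPM (SD, n = 2) and a log2 fold change of 0.15 (SE 0.099, edgeR adjusted p = 0.852). Both its COL8A1 libraries were above both NC libraries in CPM, and the LXR target MYLIP was also on the higher side. CPT1A, which brings fatty acids into mitochondria for oxidation, had 8190, 8824, 9018 and 8053 counts and a log2 fold change of 0.12 (SE 0.057).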
